A study of Mus musculus with 2 samples.

Results

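Of the 14197 genes in the deposited table, 8 encode enzymes that build or interconvert asparagine, alanine, proline, glutamate, glutamine and aspartate. These were Asns, Gpt2, Got1, Got2, Glul, Glud1, Aldh18a1 and Pycr1, chosen by name, and all 8 were in the table. The values came from 4T1 cells, a murine breast cancer line of wild-type genotype in the labels, that were given 20 μM astragalin (AS), a plant flavonoid, or its vehicle for 24 h. There was 1 RNA-sequencing library with AS and 1 with the vehicle, so no difference below has a replicate check, and no p-value is given. Every interval covers counting error only, and reads counted without molecular identifiers are not independent molecules.

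Glutamate stands at the centre of this group. It gives its nitrogen to pyruvate or oxaloacetate in aminotransferase reactions, it is the carbon source of proline, it takes up or loses ammonia as glutamine or 2-oxoglutarate, and it is released when glutamine donates its amide to aspartate to form asparagine. When an amino acid is short, or when the endoplasmic reticulum is stressed, phosphorylation of the initiation factor eIF2alpha favours translation of ATF4, a transcription factor that binds C/EBP-ATF response elements and raises genes of amino acid supply. Asns is the textbook target of this response, and its promoter is where such an element was described.

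The response element core TGATGNAA was sought on both strands of the RefSeq promoter windows (GRCm38.p6), which run from 250 bases before to 50 bases after each annotated start. All 8 genes had a window, and 3 held the core, namely Asns, Pycr1 and Got1. It was found in 2.56% of the 9680 genes of the table that had a window and in 4.51% of all 27025 genes with one. The upstream stretches of these 3 genes are given 5′ to 3′ on the gene's own strand, with the matched core in capitals, because they carry the only matches among the 8 genes. Asns is read from chr6:7693225-7693329 on the minus strand, Pycr1 from chr11:120643770-120643868 on the minus strand, and Got1 from chr19:43524606-43524725 on the minus strand.
Asns: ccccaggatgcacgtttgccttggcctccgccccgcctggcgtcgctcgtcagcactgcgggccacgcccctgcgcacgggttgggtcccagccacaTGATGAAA
Pycr1: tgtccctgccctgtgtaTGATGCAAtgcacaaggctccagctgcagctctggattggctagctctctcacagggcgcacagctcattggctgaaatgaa
Got1: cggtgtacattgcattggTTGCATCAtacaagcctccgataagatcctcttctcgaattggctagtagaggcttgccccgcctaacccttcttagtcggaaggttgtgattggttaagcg

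In Asns the core lay 23 to 16 bases before the RefSeq start, in the sense orientation. The outermost start of Asns in GENCODE M21 lies 45 bases further upstream, so that the same core is inside the transcribed part of that model. GTTACA, the other element described in the asparagine synthetase promoter, spanned the RefSeq start of Asns from base -3 to base 3, and was found in 1 of the 8 genes and in 6.56% of the genes of the table with a window. In Pycr1 the core lay 103 to 96 bases before the start in the sense orientation, and in Got1 it lay 102 to 95 bases before the start in the antisense orientation. These are matches of letters, and no binding was measured. The windows of Gpt2, Aldh18a1, Got2, Glul and Glud1 held neither sequence of letters, which covers these windows alone and not introns or distal regions.

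The 8 genes fell into a group that was higher with AS and a group that lay close to the vehicle. A gene was called when its log2 fold change, taken as AS over vehicle with 0.1 RPKM added to both values, was beyond 1 (RPKM is reads per kilobase of exon after division by library size). Gpt2, Asns and Aldh18a1 were called higher, which is 3 of 8, and 0 of 8 were called lower. Among all genes 0.662% of the genes were called higher and 0.31% lower. These are 94 and 44 genes, and the counts were 161 and 66 with nothing added and 38 and 16 with 1 RPKM added. At a fold of 1.5 the count was 5 of 8 higher, with Pycr1 and Got1 added, and 0 lower, against 3.56% and 2.01% of all genes. Got1 fell short of 1.5-fold with TMM normalization of the recovered reads (log2 fold change 0.52), which left 4 of 8. The median log2 fold change of the 8 genes was 0.78, and that of all genes was 0.07. The 8 genes were put together with earlier results of these libraries known, so their count and their median describe them and test nothing.

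**Figure D1:**
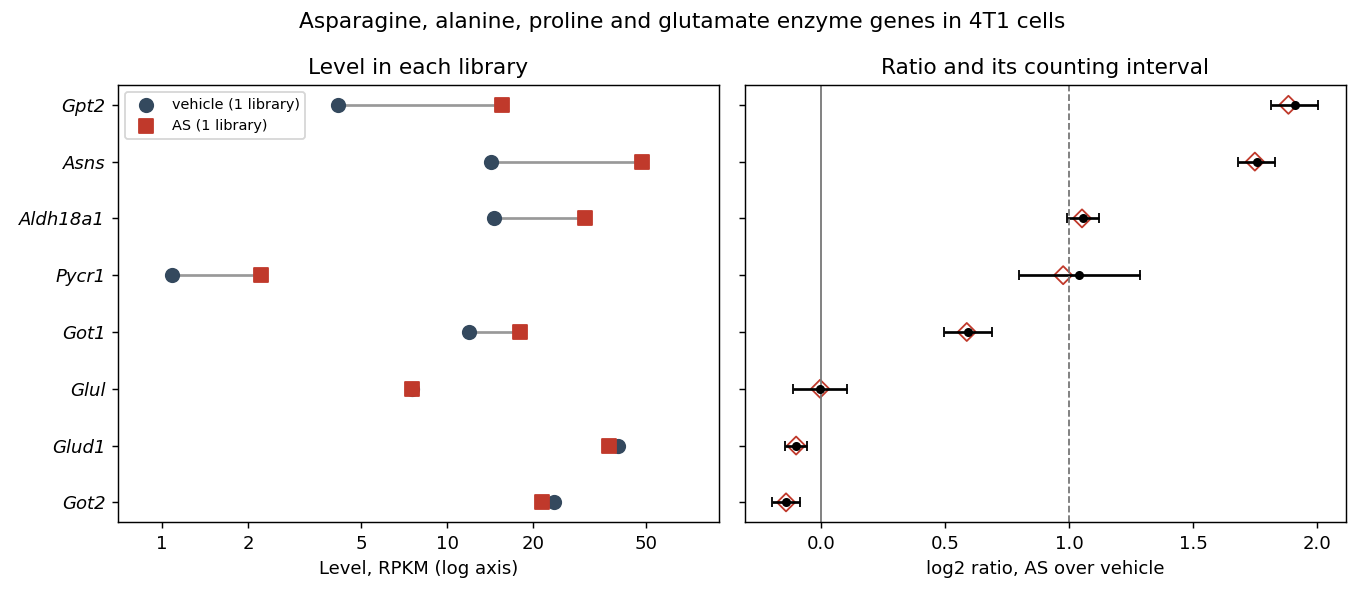
Level of each of the 8 genes in the vehicle library (circles) and the AS library (squares) in RPKM on a log axis, left, and the log2 ratio of AS to vehicle, right, where black points are the ratio with nothing added and its 95% Clopper-Pearson interval, open diamonds have 0.1 RPKM added, and the dashed line marks 1. Gpt2 and Asns sit well to the right of the dashed line, Aldh18a1 and Pycr1 have intervals that cross it, and Glul, Glud1 and Got2 sit near 0.

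Alanine and asparagine synthesis gave the largest differences. Gpt2 encodes the mitochondrial alanine aminotransferase, which passes the amino group of glutamate to pyruvate. Its level was 15.5 RPKM with AS and 4.14 RPKM with the vehicle, counted in 3938 and 1187 reads. This is a 3.75-fold difference, and the log2 fold change of 1.88 (95% Clopper-Pearson interval 1.81 to 2.00 for the ratio of reads) was the 9th largest rise in the table. With the vehicle Gpt2 stood at the 45.9th percentile of the levels of all genes, and with AS at the 76.8th. On the GRCm38 build, Gpt2 lies on chromosome 8 from 85492576 to 85527560 (plus strand) and overlaps no other annotated gene.

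Asns encodes asparagine synthetase, the enzyme that makes asparagine from aspartate with glutamine as the nitrogen donor. Its level was 48.3 RPKM with AS and 14.3 RPKM with the vehicle, counted in 5927 and 1987 reads. On the log2 scale the difference was 1.75 (interval 1.68 to 1.83), the 13th largest rise. In absolute terms Asns gained most of the 8 genes, with 33.96 RPKM more in the AS library, and it went from the 4th to the 1st place among them by level. Its share of the summed RPKM of the 8 genes was 12.2% with the vehicle and 26.7% with AS. Asns lies on chromosome 6 from 7675169 to 7693254 on the minus strand and overlaps no other annotated gene.

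The proline branch had nearly equal fold differences at very different levels. Aldh18a1 encodes the mitochondrial enzyme that turns glutamate into the precursor pyrroline-5-carboxylate. Its level was 30.5 RPKM with AS and 14.7 RPKM with the vehicle, counted in 5571 and 3032 reads, which gives a log2 fold change of 1.05 with an interval from 0.99 to 1.12. The call rests on the scaling, since the log2 fold change was 0.99 with TMM normalization of the recovered reads. Aldh18a1 lies on chromosome 19 from 40550257 to 40588463 on the minus strand. A processed pseudogene on the same strand, Gm15801, lies within it and had 78 reads with AS and 59 with the vehicle.

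Pycr1 encodes a mitochondrial pyrroline-5-carboxylate reductase, which completes proline. Its level was 2.23 RPKM with AS and 1.09 RPKM with the vehicle, counted in 394 and 217 reads, the fewest of the 8 genes. The log2 fold change was 0.98 with 0.1 RPKM added and 1.04 with nothing added, so the amount added decides on which side of the threshold it stands. The interval of the ratio of reads, 0.80 to 1.28, was the widest of the 8 and covers the threshold. Pycr1 lies on chromosome 11 from 120635712 to 120643769 on the minus strand.

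The aspartate aminotransferases, which exchange an amino group between glutamate and oxaloacetate and form part of the malate-aspartate shuttle, differed by compartment. Got1 encodes the cytosolic enzyme, and its level was 18.0 RPKM with AS and 11.9 RPKM with the vehicle, counted in 2049 and 1540 reads. On the log2 scale the difference was 0.59 (interval 0.49 to 0.69), number 500 among all genes by rise and barely past 1.5-fold. Got2 encodes the mitochondrial enzyme, and its level was 21.5 RPKM with AS and 23.8 RPKM with the vehicle, counted in 4664 and 5828 reads. Its log2 fold change was -0.14 (interval -0.20 to -0.09), on the other side of 0 from that of Got1. Summed over both genes, the level was 39.5 RPKM with AS and 35.7 RPKM with the vehicle.

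Reads of Got2 may be shared. Got2 lies on chromosome 8 from 95864134 to 95888547 on the minus strand, and Gm45760, an unconfirmed gene model on the opposite strand inside it, had 1053 reads with AS and 1183 with the vehicle. A processed copy, Got2-ps1, had 18 and 56 reads. The library kit marks strand, but the strand setting of the counting was not given in the sources used here. Got1 lies on chromosome 19 from 43499752 to 43524605 on the minus strand and overlaps no other annotated gene.

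The ammonia-handling genes, Glul and Glud1, lay within 1.5-fold of the vehicle. Glul encodes glutamine synthetase, and its level was 7.51 RPKM with AS and 7.54 RPKM with the vehicle, counted in 1276 and 1449 reads. On the log2 scale the difference was -0.0050, with an interval from -0.11 to 0.10. Glud1 encodes the mitochondrial glutamate dehydrogenase, and its level was 37.04 RPKM with AS and 39.8 RPKM with the vehicle, counted in 7004 and 8507 reads, which gives a log2 fold change of -0.10 (interval -0.15 to -0.06). Glud1 was the highest of the 8 genes with the vehicle and the 2nd with AS. Its share of their summed RPKM was 33.9% with the vehicle and 20.5% with AS. Glul lies on chromosome 1 from 153899944 to 153909723 and Glud1 on chromosome 14 from 34310727 to 34345265, both on the plus strand. Glul overlaps Teddm2, a protein-coding gene on the minus strand, and Mir8114, a microRNA gene on the plus strand. Neither was in the deposited table, so no reads can be given for them.

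**Figure D2:**
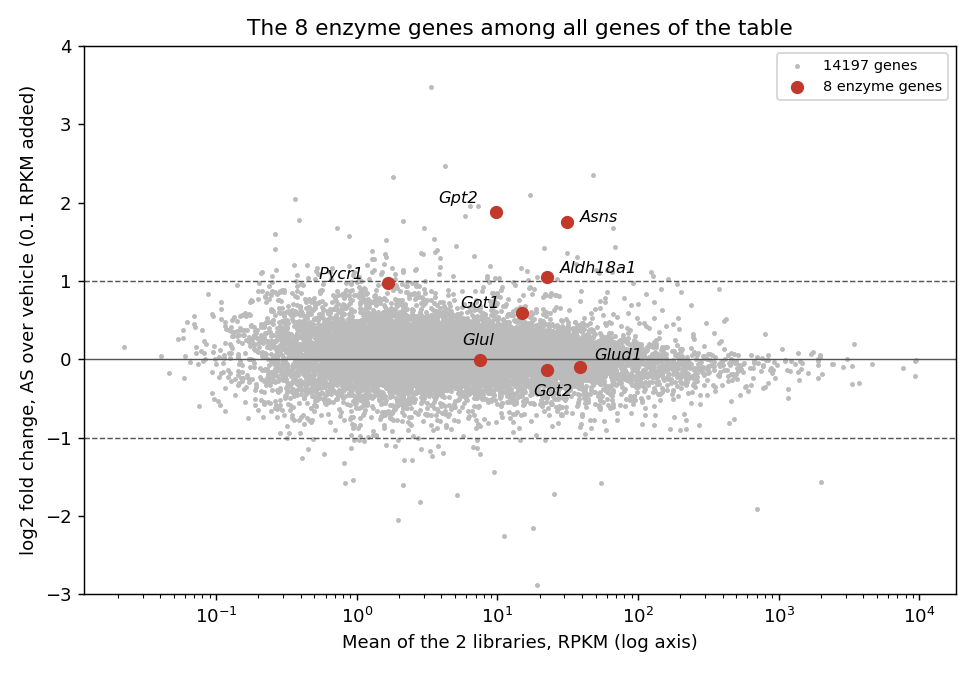
Log2 fold change of AS over vehicle against the mean RPKM of the 2 libraries (log axis) for all 14197 genes (grey) and the 8 enzyme genes (red, named), with dashed lines at 1 and -1 and 3 genes outside the axis. Gpt2 and Asns stand above the bulk of genes of similar level, while Glul, Got2 and Glud1 lie inside it.

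The summed level of the 8 genes was 181 RPKM with AS and 117 RPKM with the vehicle. The cytosolic products were Asns, Got1 and Glul, and the mitochondrial ones were Gpt2, Got2, Glud1, Aldh18a1 and Pycr1. Both compartments held genes called higher and genes near 0, so compartment did not separate them. By level with the vehicle the order was Glud1, Got2, Aldh18a1, Asns, Got1, Glul, Gpt2 and Pycr1. Aldh18a1 and Asns, neighbours at 14.7 and 14.3 RPKM in that order, differed by 1.05 and 1.75 on the log2 scale after AS. With AS the order was Asns, Glud1, Aldh18a1, Got2, Got1, Gpt2, Glul and Pycr1.

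Levels between genes depend on the exon length behind the RPKM. The deposited values use all annotated exons of a gene, from 2539 bases for Got1 to 5643 for Gpt2. For Glul the implied length was 3782 bases, while GENCODE M21 gives 3323. With the length of the principal transcript in place of all exons, an alternative chosen after seeing the data, the AS levels of Got2, Aldh18a1, Gpt2 and Got1 were 41.05, 35.2, 24.1 and 22.2 RPKM, so Got2 then stood above Aldh18a1 and Gpt2 above Got1. Asns stayed 1st with AS at 65.5 RPKM, but with the vehicle it stood 3rd at 19.4 RPKM, above Aldh18a1 at 16.9 RPKM. Glud1 stayed 1st with the vehicle at 49.4 RPKM, and Pycr1 stayed last in both libraries. The length cancels in a fold change with nothing added.

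Ratios within a library set a gene beside a paralog, an opposed reaction or a parallel one. The size of each ratio depends on the all-exon lengths used, while its log2 difference between the libraries does not. With principal transcript lengths Got1 and Got2 stood at 22.2 and 41.05 RPKM with AS and at 14.7 and 45.3 RPKM with the vehicle. Gpt2 and Gpt encode the mitochondrial and the cytosolic alanine aminotransferase. Gpt was at 1.02 RPKM with AS and 1.14 RPKM with the vehicle, and the ratio of Gpt2 to Gpt was 15.2 with AS and 3.62 with the vehicle, for a log2 difference of 2.07 (95% Wald interval from the reads, 1.73 to 2.41). The ratio of Got1 to Got2 was 0.835 with AS and 0.502 with the vehicle, for a log2 difference of 0.73 (0.62 to 0.84).

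Among opposed reactions, Asrgl1, an asparaginase-like enzyme, was at 7.54 RPKM with AS and 6.38 RPKM with the vehicle, and the ratio of Asns to Asrgl1 was 6.40 with AS and 2.24 with the vehicle. Prodh, the proline dehydrogenase that starts proline breakdown, was at 5.58 and 4.37 RPKM, and the ratio of Aldh18a1 to Prodh was 5.46 and 3.35. Glud1 and Gpt2 are a parallel pair, since both connect glutamate with 2-oxoglutarate in mitochondria. The ratio of Glud1 to Gpt2 was 2.38 with AS and 9.61 with the vehicle. The log2 differences of these ratios between the libraries had intervals clear of 0, which compare these libraries and not the conditions.

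**Figure D3:**
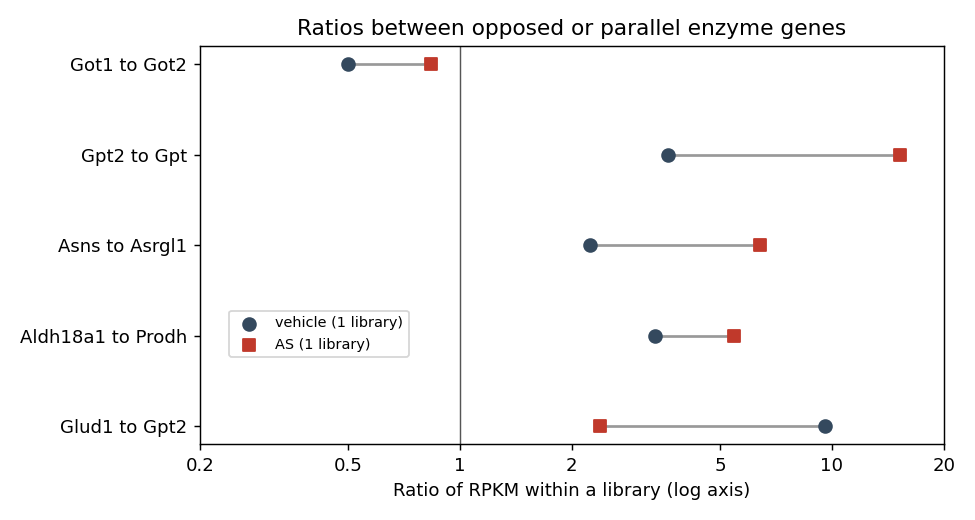
Ratio of the RPKM of a pair of genes within the vehicle library (circles) and within the AS library (squares), on a log axis with a line at 1. The RPKM use all-exon lengths, on which the position of a pair along the axis depends. The ratio of Gpt2 to Gpt moved from 3.62 to 15.2 and that of Glud1 to Gpt2 from 9.61 to 2.38.

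The wider pathway was read from 8 lists of enzymes and carriers that share substrates with these genes. Outside the 8 genes the lists held 81 further genes of the table, of which 2 were called higher and 0 lower, with a median log2 fold change of -0.02. In the asparagine and aspartate list, 1 of 12 genes was called higher, Asns itself. Nars, the cytosolic asparaginyl-tRNA synthetase, had 252 RPKM with AS and 129 RPKM with the vehicle, which is a log2 fold change of 0.96. The glutamate and glutamine list had 0 of 13 genes called in either direction and a median of -0.0050.

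The proline and ornithine list had 1 of 15 genes called higher, Aldh18a1, and 0 called lower, with a median of -0.10. Without Aldh18a1 and Pycr1 the median of the other 13 genes was -0.29. Arg1, an arginase that yields ornithine, was the only gene of these lists lower by more than 1.5-fold, with 1.52 RPKM and 2.69 RPKM from 152 and 305 reads and a log2 fold change of -0.79. At the other end of these 13 genes was Arg2, the mitochondrial arginase, named after its values were seen, with 1.53 RPKM and 0.992 RPKM from 98 and 72 reads and a log2 fold change of 0.58.

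In the aminotransferase list, drawn broadly to include Gfpt1 and Phykpl, 11 of 20 genes were in the table. Of these, 2 were called higher and 0 lower, and the median was -0.10, the value of Gfpt1. The called genes were Gpt2 and Psat1, which also uses glutamate as amino donor, in serine synthesis, and which had 22.3 RPKM with AS and 10.2 RPKM with the vehicle, which is a log2 fold change of 1.12. In the malate-aspartate shuttle Got1 was the one gene past 1.5-fold. The other 6 genes of this list had log2 fold changes from -0.20 to 0.03, and 0 of 7 genes were called. The mitochondrial carriers had 0 of 10 genes called and a median of 0.02.

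In the tricarboxylic acid cycle list, which supplies 2-oxoglutarate and oxaloacetate to these enzymes, 0 of 21 genes were called and the median was -0.05. Pck2, the mitochondrial phosphoenolpyruvate carboxykinase, was its one gene past 1.5-fold, with 10.1 RPKM and 5.46 RPKM and a log2 fold change of 0.87. Pck2 was also the 1 gene of the 63 other listed genes with a promoter window that held the core TGATGNAA. The serine and glycine list had 2 of 9 genes called higher, Mthfd2 (1.42) and Psat1, 0 lower, and a median of 0.57. Aldh1l2, a mitochondrial folate enzyme, had 0.528 RPKM and 0.215 RPKM from 178 and 82 reads. Its log2 fold change with 0.1 RPKM added was 0.996, just short of the threshold. At such low levels the amount added weighs on this value, and the interval of the ratio of reads, 0.91 to 1.69, covers the threshold. With TMM normalization and 0.5 reads added, 3 genes of this list were called higher.

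**Figure D4:**
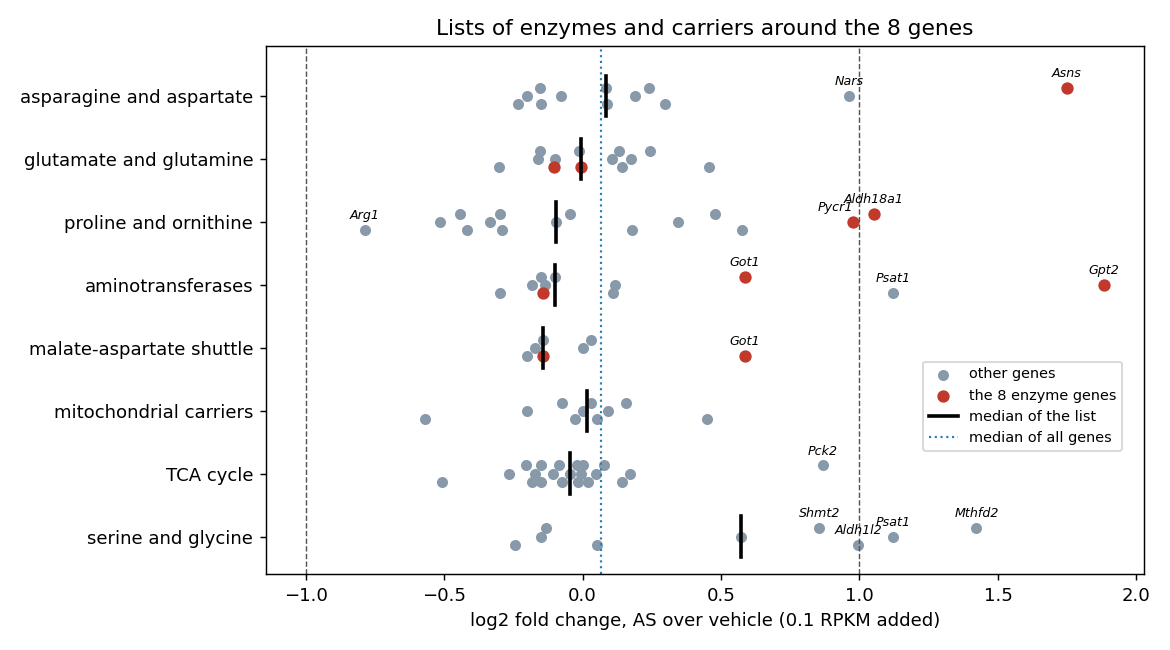
Log2 fold change of AS over vehicle for each gene of the 8 lists (points, the 8 enzyme genes in red), with the median of each list (black bar), the median of all genes (dotted line) and the threshold at 1 and -1 (dashed lines); genes past 1.5-fold are named. The red points of Asns, Gpt2 and Aldh18a1 lie beyond 1, and the glutamate and glutamine list and the mitochondrial carriers hold no gene past 1.5-fold.

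Among 6796 genes with at least 5 RPKM in both libraries, the genes nearest to Gpt2 in log2 fold change were Asns, Ddit3 (1.68) and Trib3 (2.10). Those nearest to Asns were Ddit3, Slc3a2 (1.43) and Mthfd2 (1.42). Ddit3 encodes the transcription factor CHOP, Trib3 a pseudokinase and Slc3a2 the heavy chain of amino acid exchangers. Likeness here is the closeness of 1 ratio from 2 libraries.

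The libraries had 44909683 reads with AS and 50820728 with the vehicle behind the RPKM. Each of the 6 epithelial markers sought was present, and their summed level was 1640 RPKM with AS and 2077 RPKM with the vehicle. Of the leukocyte markers 4 of 6 were in the table and summed to 26.9 and 30.5 RPKM, nearly all of it Cd68, with Ptprc at 0.116 and 0.114 RPKM and Cd3e and Cd79a not listed. Of the fibroblast markers 2 of 5 summed to 5.13 and 4.87 RPKM, and 0 of 3 endothelial markers were listed. The 4 keratins were lower with AS, Krt14 at 12.7 against 24.7 RPKM, Krt8 at 372 against 540 RPKM, Krt7 at 119 against 170 RPKM and Krt18 at 707 against 902 RPKM, while Epcam was at 335 against 357 RPKM and Cdh1, at 95.5 against 84.6 RPKM, was higher. The part of these marker levels in the results above was not tested, and in such bulk RNA fewer cells of a kind and less RNA per cell cannot be told apart. With 1 library per condition, cell density, medium and the treatment itself cannot be told apart either.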

How the data were processed

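RNA-sequencing was done on 4T1 cells with 1 library for AS and 1 for the vehicle, from a stranded mRNA kit. The authors deposited 1 table with the RPKM of each library and a log2 of the mean CPM over both. Its log2 fold change, p-value and FDR columns are the authors' own comparison and were not used. The submitters' processing notes name fastp 0.23.4, STAR 2.5.3a, featureCounts and GRCh38, a human build, while the table holds mouse symbols. The RPKM unit was found from the values. Exon lengths of GENCODE M21 (GRCm38) made the reads of both libraries whole (within 0.001) for 12715 of 13502 genes with a single entry there (94.2%), and the ratio of the columns with the mean log2 CPM gave the reads of the other 1482 genes. The recovered reads were 99.8% of both library sizes, and 0 genes were removed. The gene coordinates printed are those of GENCODE M21.

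Fold changes were taken as AS over vehicle on the log2 scale after adding 0.1 RPKM to each value, which understates the change of low genes, with the authors' scaling. The paper's methods name DESeq2 with an FDR limit and a log2 fold change beyond 1. The same section also names a log2 ratio of at least 0.585, which is 1.5-fold, with a p-value limit. With 1 library per condition both fold thresholds were used here without a test. Counting intervals are 95% Clopper-Pearson intervals of the share of a gene's reads from the AS library, and those of ratios are Wald intervals. The recovery of reads was tested on simulated data. The members and lists were chosen with earlier results of these data known. Named genes are the members, up to 3 rises and 3 falls past 1.5-fold per list, the genes of the ratios (some planned ratios are not reported here), and the 3 genes nearest in fold change to the 2 members that changed most. Arg2, the cell type markers, and the genes that overlap or copy a member are outside this rule. List genes absent under their listed symbol were matched through RefSeq synonyms. Computations ran in Python 3.11 with scipy 1.17.1.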

Additional observations from a re-analysis of the deposited data

How the results depend on the processing

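With 10 other scalings, added amounts and filters, Asns (1.67 to 1.76) and Gpt2 (1.69 to 1.91) stayed above a log2 fold change of 1 in all 10. Aldh18a1 (0.98 to 1.06) did so in 6, Pycr1 (0.63 to 1.05) in 4 and Got1 (0.51 to 0.59) in 0. Got1 passed 1.5-fold in 4 of the 10. Got2 and Glud1 stayed below 0 in all 10, and Glul was above 0 in 1 of them. The count of genes higher was 5 at a fold of 1.5, by the construction of a lower threshold, and 4 with TMM at that fold, chosen after seeing the data. The median of the 8 genes was 0.59 with 1 RPKM added, which weighs down Pycr1 most. With the median of all genes subtracted, 75 genes of the table were called higher and 57 lower, against 94 and 44. Over the 10 alternatives these counts ran from 38 to 164 higher and from 16 to 88 lower, fewest with 1 RPKM added. No alternative can supply the missing replicates, and for Pycr1 the depth also limits the interval. No paired analysis was possible because there is 1 library per condition.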
